A study of Homo sapiens with 5 samples.

Results

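The G1 cell cycle machinery was followed in cultures labelled as C4-2B prostate cancer cells through 10 genes: the CDK inhibitors CDKN1A, CDKN1B, CDKN1C, CDKN2C and CDKN2D, the cyclins CCND1 and CCND3, the kinases CDK4 and CDK6, and RB1. All probe sets that the platform gene table assigned to one of these genes alone were taken, which gave 23 probe sets for 9 of the 10 genes, out of 41091 probe sets for 19775 genes. The table named no probe set for CDKN2C, which was not analysed here. C4-2B is a bone-metastatic derivative of the LNCaP line. Cells were treated with 25 µM BR-DIM (B-DIM in the labels, a formulated diindolylmethane with better uptake) for 48 h or 6 h, or with the soy isoflavone mixture G2535 for 72 h or 6 h, at a concentration that gave 25 µM genistein. Control cells received 0.1% DMSO, and how long they were cultured is not stated in these sources. RNA of each of the 5 conditions was hybridised to 1 Affymetrix human genome array, so no difference between conditions has a replicate check and none was tested. The 4 comparisons with control share the 1 control array.

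In G1, D-type cyclins bind CDK4 or CDK6, and the complexes phosphorylate the retinoblastoma protein RB, which then releases the E2F factors that switch on genes for S phase. INK4 inhibitors such as p18 (CDKN2C) and p19 (CDKN2D) bind CDK4 and CDK6 and block their pairing with a cyclin. Cip/Kip inhibitors, which are p21 (CDKN1A), p27 (CDKN1B) and p57 (CDKN1C), bind the cyclin-CDK complexes themselves. In prostate cancer, low p27 protein and loss of RB are known features of aggressive disease. Much of the control of these proteins lies in their stability and phosphorylation, which arrays do not measure.

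The deposited signals are linear intensities scaled by the authors, and the trimmed mean of an array was between 498.1 and 498.4. A floor of 97.1, which is the median signal, was used, and lower signals were raised to it before a log2 ratio was taken. The share of probe sets over it was between 48.4% and 52.6%. The BR-DIM 48 h and isoflavone 6 h arrays stood apart from the others in the markers of the labelled cell type, and their RNA cannot be shown here to come from C4-2B cells. The summed signal of 7 prostate luminal markers was 1379 on the BR-DIM 48 h array, 8887 on the BR-DIM 6 h array, 8333 on the isoflavone 72 h array and 1383 on the isoflavone 6 h array, against 9691 on the control array, with 3, 7, 7, 3 and 6 of the 7 genes above the floor. KLK3, which encodes prostate-specific antigen, gave 14.6 with BR-DIM at 48 h, 3424 at 6 h, 1545 with isoflavone at 72 h and 269.5 at 6 h, against 5096 in the control. The sum of 10 epithelial markers was low on the same arrays, at 2070.4 with BR-DIM at 48 h and 1123 with isoflavone at 6 h, against 10575 in the control, and CDH1 (E-cadherin) was at 99.5 on the BR-DIM 48 h array and under the floor, at 85.9, on the isoflavone 6 h array. By the 2-fold rule, 6 of 7 measured prostate luminal markers were lower with BR-DIM at 48 h and 6 of 6 with isoflavone at 6 h. The isoflavone 72 h array was mixed, with KLK3 and KLK2 (124 against 707) lower, STEAP2 higher (5316 against 2505) and a median log2 ratio of -0.51 over the 7 markers. All treatments are named as the labels give them. The 9 osteoblast and fibroblast markers summed to between 1600.1 and 3067 over the 5 arrays, and the 6 macrophage and osteoclast markers to between 242 and 491. All 9 housekeeping genes lay above the floor on every array, with median log2 ratios to control of 0.26 and 0.15 with BR-DIM at 48 h and 6 h, and of 0.07 and 0.22 with isoflavone at 72 h and 6 h. One of them, TFRC, was lower with BR-DIM at 48 h (2583 against 10589, log2 ratio -2.04), and PGK1 had a log2 ratio of -0.76 on that array. Each array that stood apart is the only one of its condition and cannot be left out, so the BR-DIM 6 h and isoflavone 72 h values are read beside them. The part of these marker levels in the results was not tested. In RNA from whole cultures, fewer cells of a type and less RNA per cell cannot be told apart.

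Promoters are shown for CDKN1B and CDKN2D, because these were the inhibitor genes whose brightest probe set lay above control on all 4 treated arrays. The sequences are RefSeq's on GRCh38.p14, 250 bases before to 50 after the gene start, 5′ to 3′ on the gene's strand, at chr12:12717118-12717417 (plus strand) for CDKN1B and chr19:10568930-10569229 (minus strand) for CDKN2D. Capitals mark the core of the GC box, GGGCGG or its reverse complement CCGCCC.
CDKN1B: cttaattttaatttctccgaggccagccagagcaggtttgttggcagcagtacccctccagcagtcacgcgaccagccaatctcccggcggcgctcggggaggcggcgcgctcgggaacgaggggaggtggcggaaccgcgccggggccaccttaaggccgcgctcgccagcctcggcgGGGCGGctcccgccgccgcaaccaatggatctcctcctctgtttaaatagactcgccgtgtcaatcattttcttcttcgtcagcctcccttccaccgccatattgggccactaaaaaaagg
CDKN2D: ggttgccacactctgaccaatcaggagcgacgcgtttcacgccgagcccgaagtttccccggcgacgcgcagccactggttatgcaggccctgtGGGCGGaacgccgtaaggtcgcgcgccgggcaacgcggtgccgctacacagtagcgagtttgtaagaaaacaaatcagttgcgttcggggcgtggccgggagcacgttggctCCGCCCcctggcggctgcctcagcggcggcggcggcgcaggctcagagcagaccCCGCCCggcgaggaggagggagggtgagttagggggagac
The GC box core occurred 1 time in the CDKN1B window and 3 times in that of CDKN2D, and 45% of 35116 promoters of the same length held it on either strand. CCAAT or its reverse complement ATTGG occurred 3 times for CDKN1B and 1 time for CDKN2D (34.6% of promoters held it), the aryl hydrocarbon receptor core GCGTG or its reverse complement CACGC 1 and 2 times (36.5%), and the E-box CACGTG in neither window (7.26%). A match describes the letters only. No sequence features were compared between genes that moved and genes that did not.

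The genes were first read by their brightest probe set, the one with the highest mean signal, which lay above the floor on all 5 arrays for each of the 9 genes. With BR-DIM, 3 of the 4 inhibitor genes were above control at 48 h (median log2 ratio 1.0) and 4 of 4 at 6 h (median 0.43), while 0 of the 5 cyclin, CDK and RB1 genes were above it at either time (medians -0.34 and -0.40). The -0.34 is the value of RB1, which is grouped here with the kinases that act on its product. Its second probe set had log2 ratios of 0.07 at 48 h and 0.01 at 6 h. Among 10552 genes above the floor on all arrays, 52.7% were above control at 48 h and 54.2% at 6 h. The members were chosen with earlier results of these data known, so the contrast between the classes is a description only. CCND2, a D-type cyclin that is not a member, was above control on both BR-DIM arrays. A probe set was counted as measured where either array of the pair exceeded the floor, and as higher or lower where the difference was 2-fold or more. By that rule, 2 of 19 measured member probe sets were higher with BR-DIM at 48 h and 1 was lower, where 4.82% of all 24915 measured probe sets were higher and 4.41% lower. At 6 h, 1 of 18 was higher and 0 were lower, against 2.56% higher and 1.38% lower over all 25101 measured probe sets. After quantile normalization, 1 was higher and 1 lower, against 2.04% and 1.9% of all. With so few members, each share rests on at most 2 probe sets and nothing is read from it, and the difference between the classes was not tested. The probe set counted at 6 h on the deposited scale was a CDKN1C one. It was measured only because its BR-DIM signal passed the floor, so it could not have been lower. Of the 13 member probe sets above the floor on all arrays, 4 were above control at 48 h and 5 at 6 h, with medians of -0.21 and -0.14, where 50.8% and 51.4% of all 18947 such probe sets were above it, with medians of 0.01 and 0.01.

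With isoflavone, most of the cyclin and CDK genes again lay below control. By the brightest probe set, 4 of 4 inhibitor genes were above control at 72 h (median 0.60) and 2 of 4 at 6 h (median -0.08). Of the 5 cyclin, CDK and RB1 genes, 1 was above control at 72 h (RB1, median of the 5 -0.50) and 0 at 6 h (median -0.39), where 53.4% and 51.9% of all genes were above it. Of the 18 member probe sets measured at 72 h, 0 were higher and 2 lower by 2-fold, where 4.21% of all probe sets were higher and 3.19% lower. Those 2 were CCND1 208711_s_at, near the floor at 110.8, and RB1 211540_s_at, under it at 91.9. Of the 17 measured at 6 h, 0 were higher and 2 lower, where 1.18% of all were higher and 3.52% lower. After quantile normalization, 1 was higher and 2 were lower, where the shares of all were 1.61% and 2.83%. As with BR-DIM, nothing is read from these counts, and the difference between the classes was not tested. Of the 13 member probe sets above the floor on all arrays, 5 were above control at 72 h and 2 at 6 h, with medians of -0.31 and -0.45, where 49.8% and 50% of all such probe sets were above it.

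**Figure D1:**
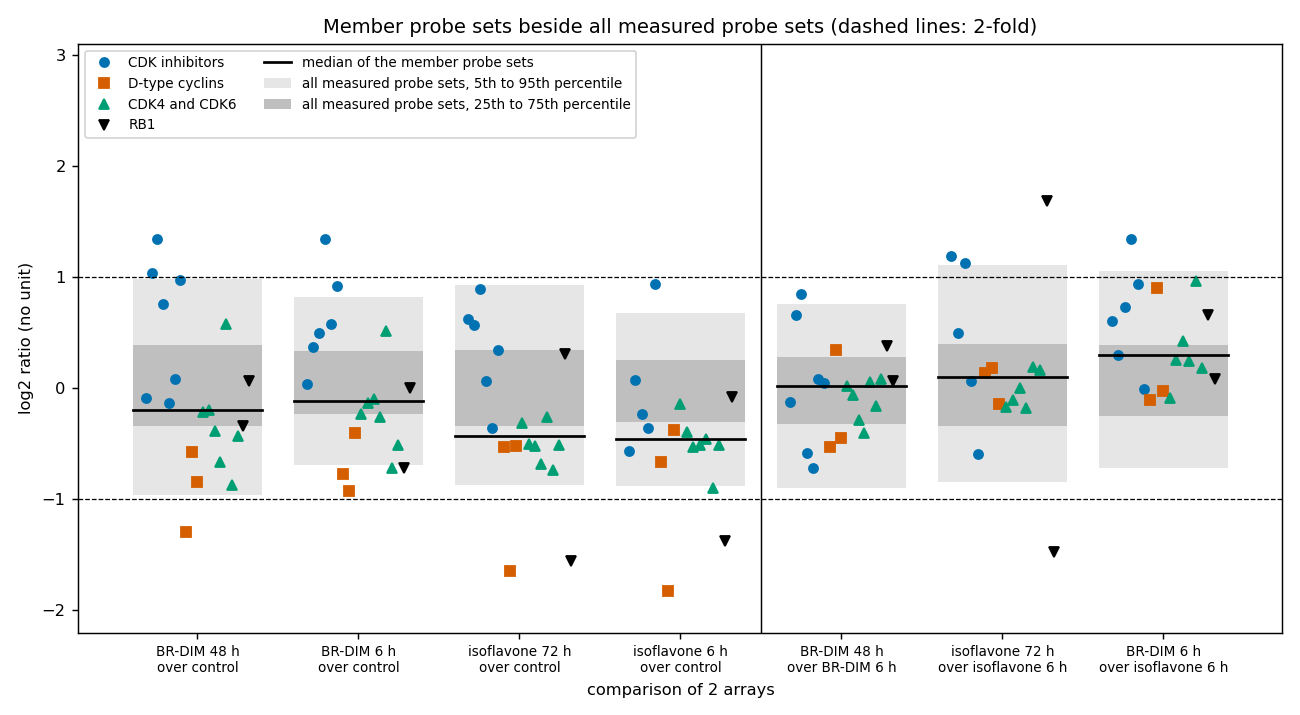
Log2 ratios of each measured member probe set in 7 comparisons of 2 arrays (points, by class), with the median of the members (black line), the ranges of all measured probe sets (grey bands) and the 2-fold limits (dashed lines). The points of the D-type cyclins CCND1 and CCND3 all lie below 0 in the 4 comparisons with control, between -1.82 and -0.38. With BR-DIM at 48 h, 2 inhibitor points pass 2-fold.

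CDKN1B, whose product p27 holds cyclin E-CDK2 inactive in resting cells, was above control on every treated array. Its probe set 209112_at gave a signal of 2823 with BR-DIM at 48 h, 1782 with BR-DIM at 6 h, 2046 with isoflavone at 72 h and 1448 with isoflavone at 6 h, against 1379 in the control. The BR-DIM 48 h array was the highest and the isoflavone 6 h array lay 1.05-fold above control. The log2 ratio of 1.03 at 48 h (2.05-fold) passed the 2-fold rule by a narrow margin, and the ratios of 0.37 for BR-DIM at 6 h and 0.57 for isoflavone at 72 h did not pass it. The arrays with low KLK3 and CDH1 were those with the highest (BR-DIM 48 h) and the lowest (isoflavone 6 h) CDKN1B signal of the treated arrays, and the part of the marker levels in these values was not tested.

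CDKN1A, which encodes p21 and is known to respond to DNA damage, had no common direction. The signal of 202284_s_at was 1075 with BR-DIM at 48 h, 1167 with BR-DIM at 6 h, 1753 with isoflavone at 72 h and 769 with isoflavone at 6 h, against 1139 in the control. Both BR-DIM arrays lay within 1.06-fold of control, and the isoflavone arrays lay on either side of it, with log2 ratios of 0.62 at 72 h and -0.57 at 6 h. No ratio to control passed 2-fold.

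CDKN1C, the imprinted gene of p57, had 5 probe sets, of which 1 was above the floor on all arrays. That probe set, 213348_at, gave 485 with BR-DIM at 48 h, 269 with BR-DIM at 6 h, 354 with isoflavone at 72 h and 162 with isoflavone at 6 h, against 191 in the control. It rose 2.54-fold with BR-DIM at 48 h, and its order over the arrays was that of CDKN1B except that isoflavone at 6 h lay below control (log2 ratio -0.23). A second probe set, 219534_x_at, gave 165 and 246 with BR-DIM at 48 h and 6 h and 102 and 49.2 with isoflavone at 72 h and 6 h, against 93.6 in the control, which is under the floor. It was at least 2.54-fold higher with BR-DIM at 6 h and at least 1.70-fold higher at 48 h, so these probe sets put the larger ratio at different times. Another one, 216894_x_at, gave 114 and 186.5 with BR-DIM at 48 h and 6 h, 85.7 and 24.6 with isoflavone at 72 h and 6 h, and 125 in the control. Its BR-DIM log2 ratios were -0.13 at 48 h and 0.58 at 6 h. Of the remaining 2, 213182_x_at was between 49.8 and 103 and above the floor with BR-DIM at 48 h only, and 219533_at was between 4.3 and 20.1. The ending _x_at marks probe sets with probes that can match other transcripts, so the CDKN1C ratios rest mainly on 213348_at.

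CDKN2D, the INK4 inhibitor p19, was above control on every treated array. The signal of 210240_s_at was 389 with BR-DIM at 48 h, 375.5 with BR-DIM at 6 h, 250.5 with isoflavone at 72 h and 378 with isoflavone at 6 h, against 198 in the control. The log2 ratios were 0.97 and 0.92 with BR-DIM at 48 h and 6 h and 0.94 with isoflavone at 6 h, and that with isoflavone at 72 h was lower, at 0.34. None of the 4 passed 2-fold on the deposited scale, and the BR-DIM 48 h and isoflavone 6 h ratios passed it after quantile normalization (1.01 and 1.03). The other probe set, 213586_at, was under the floor on all 5 arrays, between 5.0 and 22.3.

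**Figure D2:**
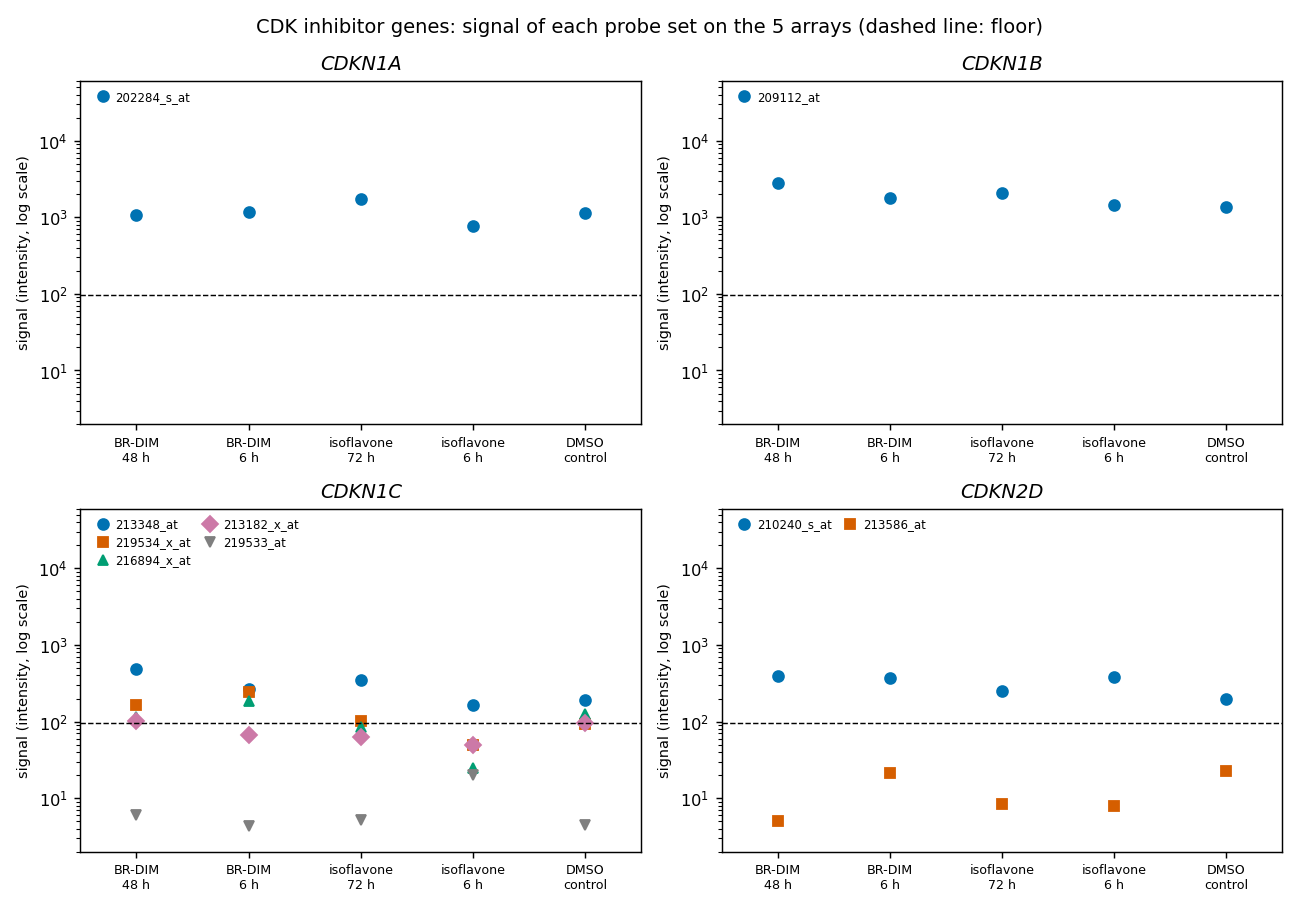
Signal (intensity, log scale) of each CDK inhibitor probe set on the 5 arrays, 1 point per array and probe set, with the floor as a dashed line. CDKN1B (2823 on the BR-DIM 48 h array against 1379 in the control) and CDKN2D 210240_s_at (389 against 198) lay above control on each treated array, while CDKN1A lay on both sides of it.

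CCND1, the cyclin through which growth factor signals reach CDK4 and CDK6, was below control on every treated array with both of its probe sets. The signal of 208712_at was 516 with BR-DIM at 48 h, 742 with BR-DIM at 6 h, 876 with isoflavone at 72 h and 796 with isoflavone at 6 h, against 1264 in the control. The BR-DIM 48 h array was the lowest and fell 2.45-fold (log2 ratio -1.29), and the other ratios were -0.77, -0.53 and -0.67. The signal of 208711_s_at was 232, 182, 111 and 97.8 on the same arrays, against 346 in the control. Here the isoflavone arrays were the lowest, 3.12-fold lower at 72 h and 3.54-fold lower at 6 h, and the BR-DIM log2 ratios were -0.58 at 48 h and -0.92 at 6 h. The probe sets therefore shared the direction and differed in which compound gave the larger ratio. On the isoflavone 6 h array, 208711_s_at lay just above the floor of 97.1.

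CCND3, the D-type cyclin best known from lymphocytes, was also lower on each treated array, by less than 2-fold. The signal of 201700_at was 718 with BR-DIM at 48 h, 976 with BR-DIM at 6 h, 897 with isoflavone at 72 h and 991.5 with isoflavone at 6 h, against 1290.4 in the control. Its log2 ratios were -0.85, -0.40, -0.52 and -0.38, with the BR-DIM 48 h array again the lowest, as for CCND1 208712_at. The other probe set, 1562028_at, was under the floor on all arrays, between 5.8 and 87.8.

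The distance between CDKN1B and CCND1 on one array does not depend on a single factor by which that array was scaled. It can change under quantile normalization, where CCND1 208711_s_at had -1.04 rather than -0.92 with BR-DIM at 6 h. The value of CDKN1B stayed at 0.37 there. The log2 ratio of CDKN1B minus that of CCND1 208712_at was 2.33 with BR-DIM at 48 h, 1.14 with BR-DIM at 6 h, 1.10 with isoflavone at 72 h and 0.74 with isoflavone at 6 h, which are 5.02-, 2.20-, 2.14- and 1.67-fold shifts of p27 over cyclin D1 mRNA relative to control. With 208711_s_at the differences were 1.61, 1.29, 2.21 and 1.89. The sign of these differences was fixed by the ratios given above and is no separate result. CDKN1B lay above control, and both CCND1 probe sets below it, on all 4 treated arrays, and all differences share the control array. On the BR-DIM 6 h and isoflavone 72 h arrays alone, the difference was between 1.10 and 2.21.

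CDK4 varied least among the measured members. Its signal on 202246_s_at was 8391 with BR-DIM at 48 h, 8277 with BR-DIM at 6 h, 7825 with isoflavone at 72 h and 8807 with isoflavone at 6 h, against 9720.5 in the control. All 4 treated arrays lay below control, by 1.10- to 1.24-fold, and among the treated arrays the widest gap was that between the isoflavone times, 1.13-fold lower at 72 h.

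CDK6, the partner kinase of CDK4, had 7 probe sets, and its 3 brightest were all below control on each treated array. The signal of 224847_at was 2378.5 with BR-DIM at 48 h, 2480.1 with BR-DIM at 6 h, 1924 with isoflavone at 72 h and 2077 with isoflavone at 6 h, against 2725 in the control. The signal of 224851_at was 1705 and 2081 with BR-DIM at 48 h and 6 h and 1548 and 1545 with isoflavone at 72 h and 6 h, against 2226 in the control, and that of 224848_at was 1171, 1549, 1155 and 1306 on the same arrays, against 1858.5. The 12 log2 ratios of these probe sets lay between -0.69 and -0.10, and the smallest decrease of each was with BR-DIM at 6 h. The dimmer 235287_at gave 98.5, 110.0, 109 and 86.3 on the treated arrays against 180.5 in the control, and 207143_at gave 103, 90.3, 94.5 and 45.7 against 138.5, so both were below control but at or near the floor. One probe set went the other way with 1 compound: 243000_at gave 285 and 273 with BR-DIM at 48 h and 6 h and 159.6 and 139.6 with isoflavone at 72 h and 6 h, against 191 in the control. Its BR-DIM log2 ratios were 0.57 and 0.52, where the isoflavone ones were -0.26 and -0.45. The last probe set, 231198_at, was under the floor on all arrays, between 6.0 and 33.7.

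RB1, which encodes the pocket protein that these kinases phosphorylate, gave opposite pictures with its 2 probe sets. The signal of 203132_at was 644.5 with BR-DIM at 48 h, 496 with BR-DIM at 6 h, 1013 with isoflavone at 72 h and 314 with isoflavone at 6 h, against 817 in the control. It fell 2.60-fold with isoflavone at 6 h and was 1.24-fold above control at 72 h. The signal of 211540_s_at was 299, 286, 91.9 and 269.8 on the same arrays, against 285 in the control. This one was within 1.06-fold of control on 3 treated arrays and fell at least 2.94-fold with isoflavone at 72 h, where it lay under the floor. The array that was lowest for the second probe set was thus the highest for the first, and no direction is given for RB1 with isoflavone.

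**Figure D3:**
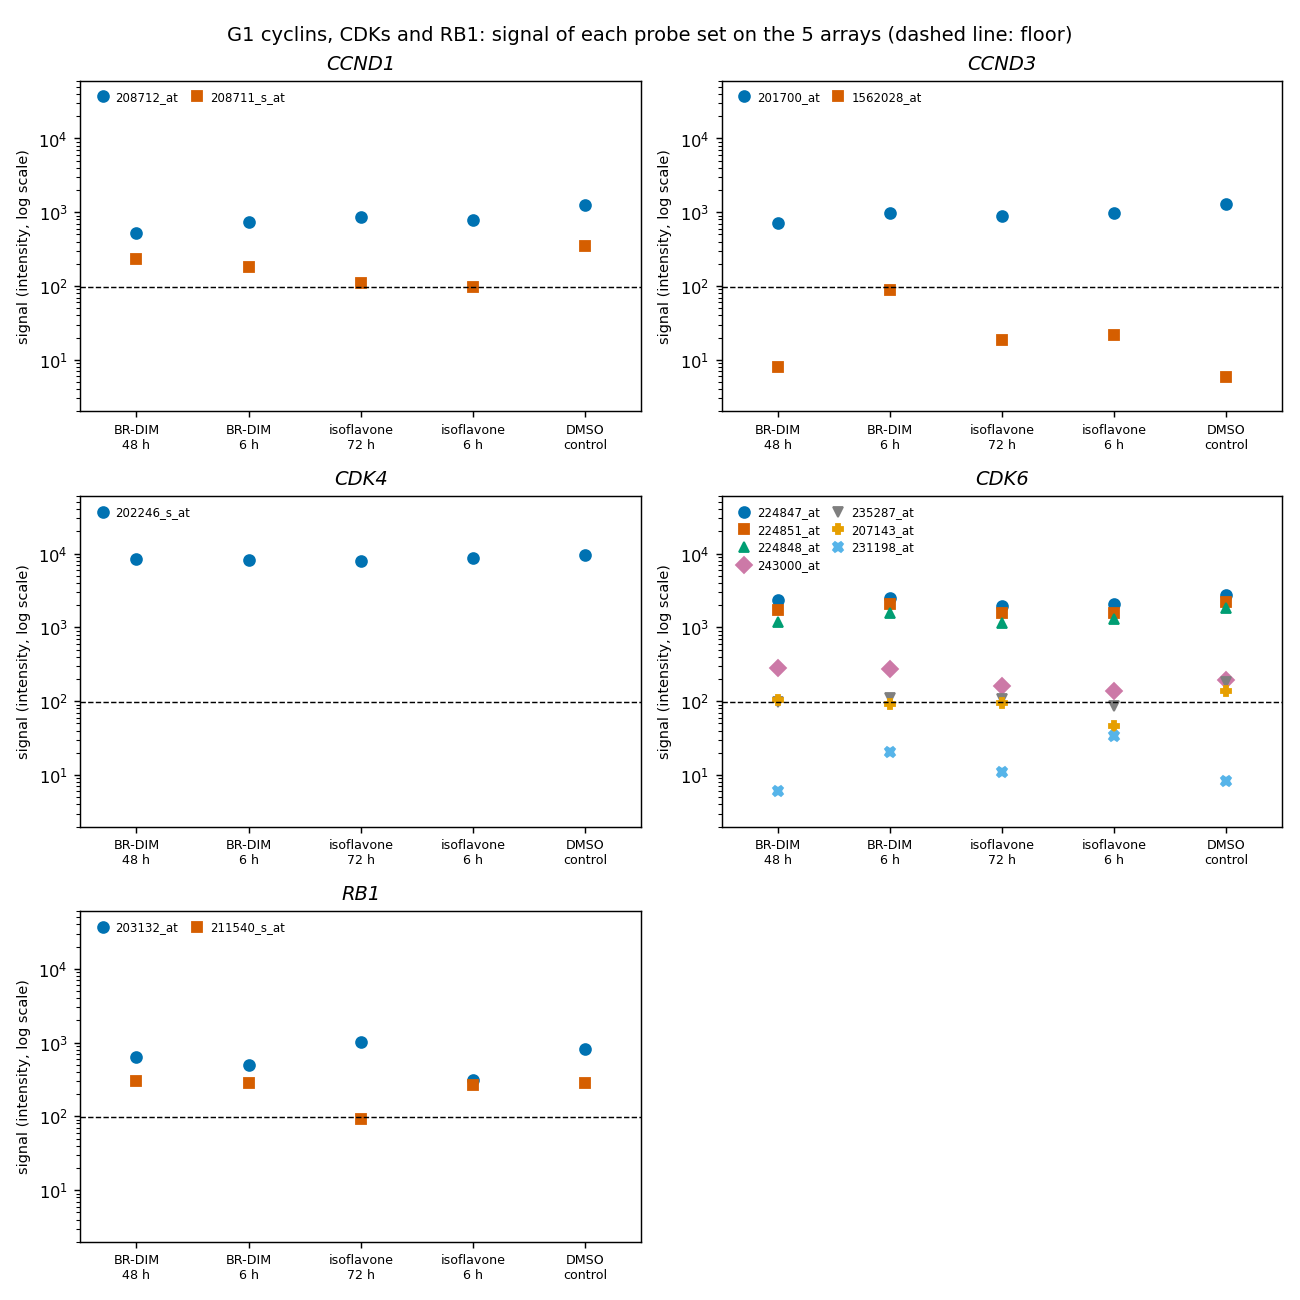
Signal (intensity, log scale) of each cyclin, CDK and RB1 probe set on the 5 arrays, 1 point per array and probe set, with the floor as a dashed line. Both CCND1 probe sets were highest on the control array (1264 and 346), while RB1 203132_at was highest (1013) and 211540_s_at lowest (91.9) on the isoflavone 72 h array.

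How far probe sets of a gene differ was measured over all genes with the 2 brightest probe sets above the floor on both arrays. The median absolute difference of their log2 ratios was 0.32 for BR-DIM at 48 h (5570 genes), 0.29 for BR-DIM at 6 h, 0.39 for isoflavone at 72 h and 0.27 for isoflavone at 6 h, all over control, the 90th percentiles were 0.90, 0.80, 1.0 and 0.77, and the sign was the same in 68.4%, 62.9%, 61.7% and 63.5% of the genes. The 2 brightest CDK6 probe sets were closer than those of the median gene in all 4 comparisons, with differences of 0.19, 0.04, 0.02 and 0.13. Over its 6 measured probe sets the range was wider, at 1.45, 1.23, 0.47 and 0.50 in the same comparisons. For CCND1 the differences were 0.72, 0.16, 1.11 and 1.16, past the 90th percentile for isoflavone only. For RB1 they were 0.41 and 0.73 for BR-DIM and 1.3 for isoflavone at 6 h, the last also past it, and at 72 h the ratios of 0.31 and at most -1.55 lay on either side of 0. For CDKN1C, 213348_at and 216894_x_at differed by 1.48 with BR-DIM at 48 h and 0.08 at 6 h.

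Within a compound, the longer treatment was set against the shorter, which leaves the control array out. With BR-DIM, 0 of 19 member probe sets differed 2-fold between 48 h and 6 h, where 2.05% of all probe sets were higher and 3.69% lower (2.98% and 2.9% after quantile normalization). The largest log2 ratios in each direction were 0.85 for CDKN1C 213348_at and -0.71 for 216894_x_at, and CDKN1B had 0.66 and CCND1 208712_at -0.53. With isoflavone, 3 of 16 were higher at 72 h than at 6 h and 1 was lower, where 6.48% of all were higher and 2.75% lower. After quantile normalization, 2 were higher and 1 was lower, where the shares of all were 5.16% and 3.63%. Those higher on the deposited scale were CDKN1A (1753 against 769, 2.28-fold), CDKN1C 213348_at (354 against 162, 2.18-fold) and RB1 203132_at (1013 against 314, 3.22-fold). RB1 211540_s_at was at least 2.78-fold lower, and was measured only through its 6 h signal, so it could not have been higher. CCND1 differed little between the isoflavone times (0.14 and 0.18). The array in each pair with low prostate and epithelial markers is BR-DIM 48 h for the first and isoflavone 6 h for the second.

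Both compounds were measured at 6 h and at the same stated concentration, of diindolylmethane formulation in one case and of genistein in the other. Of the 13 member probe sets above the floor on all arrays, 9 were above 0 for BR-DIM over isoflavone and 4 below it, with a median log2 ratio of 0.30, where 51% of all such probe sets were above 0, with a median of 0.01. By the 2-fold rule 1 of 17 measured member probe sets was higher and 0 were lower on the deposited scale. Of all probe sets 5.86% were higher and 1.57% lower on that scale (4.26% and 2.81% after quantile normalization). The probe set past 2-fold was CDKN1C 219534_x_at (246 against 49.2, at least 2.54-fold), and CDK6 243000_at (273 against 139.6, 1.96-fold), CCND1 208711_s_at (182 against 97.8, 1.86-fold) and CDKN1C 216894_x_at (at least 1.92-fold) came next. Both CDKN1C probe sets were measured only because their BR-DIM signal passed the floor, so they could not have been lower. CDKN2D (-0.01), CCND3 (-0.02) and CDK4 (-0.09) were nearly alike on these arrays, without a replicate to give an interval. Only the isoflavone array of the pair had low KLK3 and CDH1.

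**Figure D4:**
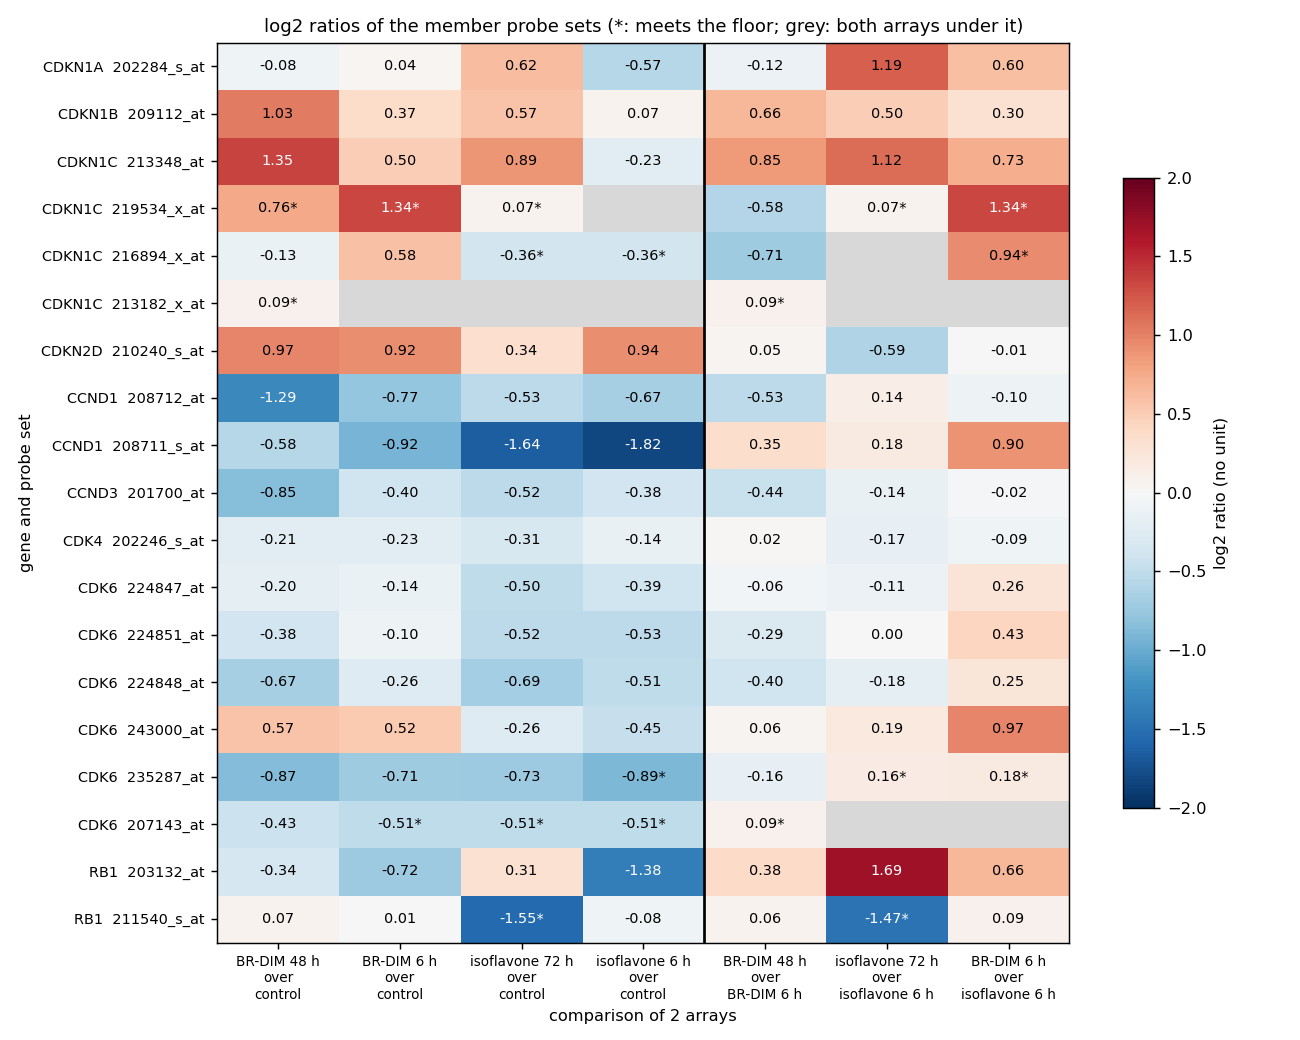
Log2 ratio of the 19 member probe sets above the floor on any array (rows) in the 4 comparisons with control and the 3 without it (columns). Red is higher and blue lower in the group named first, an asterisk marks a signal at the floor and grey marks both arrays under it. The CCND1 and CCND3 cells are negative in all 4 comparisons with control and the CDKN1B and CDKN2D cells positive.

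The other genes of the pathway were read with the brightest probe set of each gene, beside medians over all genes of 0.06 and 0.07 for BR-DIM at 48 h and 6 h over control, and of 0.05 and 0.0035 for isoflavone at 72 h and 6 h. Over all measured genes, 5.33% were higher by 2-fold and 3.87% lower with BR-DIM at 48 h, and 2.86% and 0.806% with BR-DIM at 6 h. For isoflavone these shares were 4.8% and 2.06% at 72 h and 1.18% and 3.82% at 6 h. Of 10 other G1 and S cyclins, CDKs and activators with a probe set, among them the cyclin E genes and CDK2, 0 changed 2-fold in either direction in any comparison with control (medians -0.08, -0.11, -0.27 and -0.20). The same held for 5 other inhibitors and pocket proteins (0.08, -0.06, -0.20 and 0.09), for 10 E2F and DP factors (0.37, 0.13, -0.01 and -0.15) and for 11 E2F target genes (-0.00, -0.12, -0.11 and 0.02). At those shares of all genes, a count of 0 in lists of this size is near the background. CCND2, a D-type cyclin outside the members, gave 6649 and 4483 with BR-DIM at 48 h and 6 h. It gave 4123 and 2971 with isoflavone at 72 h and 6 h, against 3931 in the control. Unlike CCND1 and CCND3, it was thus below control on the isoflavone 6 h array only. The E2F targets are genes whose transcription RB restrains. Of 14 genes of p27 and cyclin turnover, 1 was higher on 3 arrays, both of BR-DIM and isoflavone at 72 h, and 1 was lower with BR-DIM at 48 h. These counts are also near the shares of all genes, and nothing is read from them. The higher gene was FBXO4, an F-box protein linked to cyclin D1 degradation. Its signal was 519.5 with BR-DIM at 48 h, 518 with BR-DIM at 6 h, 683 with isoflavone at 72 h and 398 with isoflavone at 6 h, against 248.5 in the control. RBX1, the RING subunit of cullin ligases, was the lower gene with BR-DIM at 48 h (4479.5 against 8974), and only just passed 2-fold (log2 ratio -1.002). SKP2 and CKS1B, which direct p27 to degradation, did not pass 2-fold. Of 12 upstream regulators with a probe set, KLF6 (3132 against 1027) and KLF4 (961 against 410.1) rose past 2-fold with BR-DIM at 48 h. Both are zinc finger factors known to act on the CDKN1A promoter. CDKN1A itself was not higher on the BR-DIM 48 h array (1075 against 1139 in the control), and a link was not tested. KLF6 gave 1618 with BR-DIM at 6 h, and 1541 and 1499 with isoflavone at 72 h and 6 h. KLF4 gave 626, 679 and 353 on the same arrays. FOXO4, a forkhead factor that can activate CDKN1B, rose with both compounds at 6 h. It gave 96.2 with BR-DIM at 48 h, 252 at 6 h, 78.8 with isoflavone at 72 h and 225.0 at 6 h, against 100.1 in the control. FOXO4 was thus under the floor on both later arrays and just above it in the control.

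The genes whose log2 ratios to control were closest to those of CDKN1B, by root mean square difference over the 4 treated arrays and among 10552 genes above the floor on all 5, were CTNNAL1 (0.052), GAS7 (0.062) and HERPUD2 (0.074). Closest to CCND1 208712_at were PPP2R1A (0.040), ACAA1 (0.089) and TNRC6A (0.10). These are the nearest of many genes over 4 values that share 1 control, and are given as a description.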

How the data were processed

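Total RNA of cultures labelled as C4-2B cells was hybridised to Affymetrix arrays, 1 for each of 5 conditions. The authors computed the intensity values with MAS5, the tool in the submitters' processing notes, and deposited 1 linear, scaled signal per probe set. No detection calls were used here. Genes were taken from the platform annotation given with the series: of 54613 probe sets, 41091 carried 1 gene symbol, 1801 several and 11721 were not in the table, and only the first were used.

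The median signal, 97.1, served as a floor to which lower signals were raised. A probe set was measured where either of the 2 arrays exceeded the floor, a ratio was read as a bound where a signal met the floor, and 2-fold was counted as a change. No between-array normalization was added. With 1 array per condition no test, SD or interval was possible. For counts by gene, the pathway lists and the nearest genes, the probe set with the highest mean signal represented its gene. Named were all member probe sets and, of each pathway list, up to 4 genes changed 2-fold whose signal reached 2 times the floor. Also named were the 3 genes nearest to CDKN1B and CCND1, and markers beside a result. SKP2, CKS1B, CDK2 and CCND2 were added with their values known. The members and lists were chosen with earlier results of these data known.

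The alternatives tried were rules of 1.5-fold and 3-fold, quantile normalization, the median ratio to control as scale, a floor at the 75th percentile (471.7) or as a pseudocount, none at all, and leaving out probe sets that end in _s_at or _x_at. The procedure was tested on simulated data. Promoter sequences were RefSeq's for GRCh38.p14, and 8 of the 10 member genes matched the promoter table. Python 3.11.15, numpy 2.4.6, pandas 2.3.3, scipy 1.17.1 and matplotlib 3.10.9 were used.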

Additional observations from a re-analysis of the deposited data

Results flagged for a closer look

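CDK6 243000_at moved in opposite directions with the compounds. The mean log2 ratio to control of the BR-DIM arrays exceeded that of the isoflavone arrays by 0.90 (0.57 and 0.52 with BR-DIM at 48 h and 6 h, against -0.26 and -0.45 with isoflavone at 72 h and 6 h), while the 3 brighter CDK6 probe sets were below control on all 4 treated arrays. RB1 211540_s_at differed in the same way by at least 0.85 (0.07 and 0.01 for BR-DIM, against at most -1.55 and -0.08 for isoflavone). Its large value is that of the isoflavone 72 h array alone, where the signal lay under the floor. The BR-DIM 6 h value of this probe set became -0.06 after quantile normalization and -0.02 after scaling by the median ratio, and its isoflavone 6 h value became 0.03 after quantile normalization, so its opposite signs do not hold under every scaling. The brighter RB1 203132_at had log2 ratios of -0.34 and -0.72 with BR-DIM at 48 h and 6 h. With isoflavone it had 0.31 at 72 h and -1.38 at 6 h, so it lay on both sides of the BR-DIM values. Neither difference between the compounds was tested, since each compound has 1 array per time and both share the control.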

How the results depend on the processing

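Numbers of member probe sets past the fold rule were small and moved with the settings: 28 of 56 recomputed counts stayed within 1.5 times the value reported. The reported counts over control were 3 and 1 for BR-DIM at 48 h and 6 h and 2 and 2 for isoflavone at 72 h and 6 h, with 0 between the BR-DIM times, 4 between the isoflavone times and 1 between the compounds at 6 h. A 1.5-fold rule gave 8, 6, 6 and 5 over control, listed the same way, 3 between the BR-DIM times and 7 between the compounds. A 3-fold rule gave 0, 0, 1 and 1 over control, 1 between the isoflavone times and 0 between the compounds. Quantile normalization gave 2 for BR-DIM 6 h over control. With the floor at the 75th percentile the counts were 0 for BR-DIM at 6 h and for isoflavone at 72 h and at 6 h over control, 2 between the isoflavone times and 0 between the compounds. With the floor as a pseudocount they were 0 for BR-DIM 6 h over control, 2 between the isoflavone times and 2 between the compounds. Without _s_at and _x_at probe sets they were 0 for BR-DIM at 6 h, 0 and 1 for isoflavone at 72 h and at 6 h over control, 2 between the isoflavone times and 0 between the compounds. With no floor they were 5 for isoflavone 6 h over control and 2 between the compounds.

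Of 13 single differences past 2-fold, 0 changed sign. Only 3 were evaluated under every scaling and floor and stayed past 2-fold under each: CCND1 208712_at with BR-DIM at 48 h, and CDKN1A and RB1 203132_at between the isoflavone times. Of all 13, 7 could not be evaluated with the floor at the 75th percentile, since both signals lie under it, and 7 are of probe sets ending in _s_at or _x_at. CDKN1B with BR-DIM at 48 h had a log2 ratio of 0.98 with the pseudocount. CDKN1C 213348_at had 0.04 with BR-DIM at 48 h and RB1 203132_at -0.79 with isoflavone at 6 h under the 75th-percentile floor, which lies above the lower signal of each pair. With the pseudocount, CDKN1C 219534_x_at had 0.85 with BR-DIM at 6 h and RB1 211540_s_at -0.96 between the isoflavone times, and CDKN1C 213348_at between the isoflavone times had 0.80, or 0.95 after quantile normalization. No scaling moved the median of all probe sets by over 0.1 on the log2 scale. No paired analysis was possible because each condition has 1 array, and for the same reason neither depth of signal nor array quality could be separated from treatment.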
